A study of Mus musculus with 2 samples.

Results

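The genes described here are 47 named genes of protein folding, quality control and export in the endoplasmic reticulum (ER), with the regulators of the unfolded protein response (UPR). They were taken by symbol from the 31053 genes of the count matrices, and 47 of 47 were found. Their messenger RNA was read in single B cells of the colonic lamina propria, the connective tissue under the gut epithelium. Cells in which at least 20% of unique molecular identifiers (UMIs, 1 per captured RNA molecule) came from immunoglobulin genes are called Ig-high. Class-switched cells had less than 20%, with at least 3 UMIs of an IgA, IgE or IgG heavy chain constant gene and over 50% of their heavy chain constant UMIs from it. All remaining cells are called other cells.

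Secreted and membrane proteins enter the ER through the Sec61 channel, lose their signal peptide, receive glycans, and are folded by chaperones and by enzymes that form disulfide bonds. Chains that fail to fold are drawn back out and degraded, and an excess of them starts the UPR, whose sensors are IRE1, PERK and ATF6. IRE1 splices the RNA of Xbp1, PERK raises translation of ATF4, and plasma cells, which secrete antibody, are known to need XBP1 and a large ER.

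Both libraries came from female C57BL/6J mice, 1 library per day. The day 0 group had no treatment. The day 14 group drank 2% dextran sulfate sodium (DSS), which injures the colon lining, for 7 days and recovered for 7 days. B cells were sorted by flow cytometry and run on the 10x Chromium 3′ kit version 2. Both samples carry a DSS treatment tag, so the grouping was taken from titles and protocols. The sources used here give no ages, sort markers or number of mice per library. With 1 library a day there was no test between groups, and the intervals below cover counting error only.

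The day 0 library held 3290 cells with 8690102 UMIs, and the day 14 library 4692 cells with 12317052 UMIs. Ig-high cells numbered 24 at day 0 and 27 at day 14, class-switched cells 94 and 63, and other cells 3172 and 4602. The median cell had 18973.5 and 14833 UMIs among Ig-high cells against 2257.5 and 2226 among other cells. The 2 libraries shared 17 cell barcodes, of which 0 were Ig-high. Levels are given as CPM, UMIs per 1000000 UMIs of genes other than immunoglobulin and mitochondrial genes, so UMIs of immunoglobulin genes do not dilute them. The antibody joining chain gene Jchain was not among the genes left out.

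Ig-high cells carried plasma cell markers. Of 9 listed, 8 of 8 measured were higher than in other cells at day 0 and 8 of 9 at day 14, with Sdc1, which encodes the surface proteoglycan CD138, at 43.1 and 44.0. Irf4, a plasma cell transcription factor, was at 3.02 (1.82 to 4.76) at day 0 and at 0.977 (0.390 to 2.03), not called, at day 14. Tnfrsf17, the plasma cell survival receptor BCMA, had 103 UMIs at day 0 and 99 at day 14 in them, and 0 on both days in other cells. The summed level of 12 mature B cell markers was 0.311 of that in other cells at day 0 and 0.206 at day 14, and Pax5 had 0 and 1 UMIs. The 8 T cell markers summed to 3 UMIs on each day, all of Cd4, and the 8 myeloid markers to 2 UMIs on each day, all of Cd68. Of 8 epithelial markers, Epcam gave 25 of 29 UMIs at day 0 and 21 of 23 at day 14, while Krt8, Muc2 and Cdh1 were at 0. The summed epithelial level was 11.1-fold and 7.50-fold that of other cells, with Epcam the 1 marker called higher on each day, and its part in the ratios below was not tested. Jchain, the joining chain of polymeric antibody, made up 17.6% of the non-immunoglobulin UMIs of Ig-high cells at day 0 and 9.24% at day 14, and it stands in the denominator of their levels.

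Several members are textbook carriers of the ER stress response element (ERSE), CCAAT and CCACG set 9 bases apart, which ATF6 and XBP1 bind with the factor NF-Y. RefSeq promoter windows, from 250 bases before to 50 after the gene start on GRCm38.p6, were at hand for 37 of the 47 members. Read on both strands, this full motif was found in the windows of 9 members (Calr, Canx, Creld2, Derl3, Dnajc3, Hsp90b1, Hspa5, Pdia6 and Syvn1), which is 24.3% of 37, against 37 of 27025 genes in all, or 0.137%. The following stretches of 60 bases upstream of the start are shown because Derl3, Creld2 and Hsp90b1 were among the members with the highest ratios in Ig-high cells and Canx among those with the lowest. Capitals mark the outer 5 bases of each end of the motif, or their reverse complement, and each stretch reads 5′ to 3′ on the gene's strand.
Derl3, chr10:75893222-75893281, plus strand: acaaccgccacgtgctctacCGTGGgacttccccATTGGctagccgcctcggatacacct
Creld2, chr15:88819500-88819559, plus strand: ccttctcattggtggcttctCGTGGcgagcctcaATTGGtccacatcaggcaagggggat
Hsp90b1, distal, chr10:86705617-86705676, minus strand: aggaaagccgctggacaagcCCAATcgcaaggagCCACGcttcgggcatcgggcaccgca
Hsp90b1, proximal, chr10:86705512-86705571, minus strand: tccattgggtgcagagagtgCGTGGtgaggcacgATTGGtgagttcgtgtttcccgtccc
Canx, chr11:50325779-50325838, minus strand: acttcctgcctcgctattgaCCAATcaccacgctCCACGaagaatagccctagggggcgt
Among these windows, only that of Hsp90b1 held the motif more than once. The shorter element, ATTGG and CCACG set 1 base apart, was found in Dnajb11, Herpud1 and Krtcap2 (3 of 37 members, 0.0444% of all genes), TGACGTGG in Txndc11 and Txndc5 (2 members, 0.714% of all genes), and TGATGNAA, bound by ATF4 with its partners, in Herpud1, Trib3 and Txndc5 (3 members, 4.51% of all genes). No matches of different motifs overlapped. A match describes letters in a window, not a site in use. Among members with a window and a measured ratio, the median ratio of Ig-high to other cells was 8.99 for the 9 with the full motif and 7.23 for the 27 without at day 0, and 9.89 and 10.8 at day 14.

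The 47 members together made up 4.54% of the non-immunoglobulin, non-mitochondrial UMIs of Ig-high cells at day 0 and 0.549% of those of other cells, an 8.28-fold difference with a 95% interval of 8.08 to 8.48. At day 14 the shares were 6.61% and 0.546%, which is 12.1-fold (11.9 to 12.3). Single Ig-high cells ranged from 2.63% to 8.26% at day 0, with a median of 4.48%, and from 3.40% to 11.1% at day 14, with a median of 6.36%. The highest other cell reached 1.85% at day 0 and 1.92% at day 14, so on both days every Ig-high cell lay above every other cell. With each cell thinned to 1000 UMIs, the median number of members with a UMI was 22 and 25 in Ig-high cells against 4 on both days in other cells, where 36 and 77 shallower cells were left out. Before thinning the medians were 40 and 42 against 9 on both days.

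**Figure D1:**
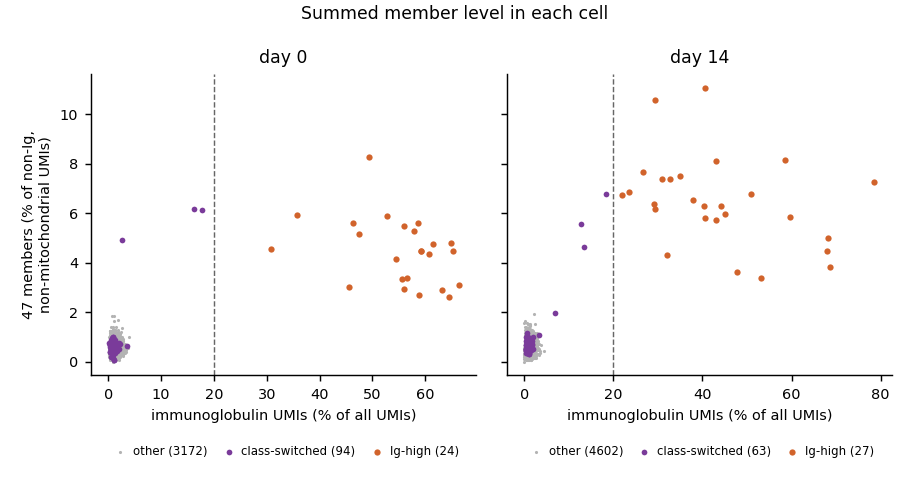
Summed level of the 47 members in each cell, as a percent of non-immunoglobulin, non-mitochondrial UMIs, against the percent of all UMIs that came from immunoglobulin genes. Each point is a cell, and the dashed line marks the 20% that defines Ig-high cells, all of which lie above 2.5%, while all other cells (grey) stay below 2%.

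By gene, 43 members were at least 2-fold higher in Ig-high than in other cells at day 0 with an interval clear of 1, and 44 were at day 14. By the same rule 11.4% of the 8990 genes measured at day 0 and 12.4% of the 9349 at day 14 were higher. No member was at least 2-fold lower, against 10.7% and 10.1% of all measured genes. The median member ratio was 8.14 at day 0 and 10.8 at day 14, where the median of all genes was -0.37 and -0.32 on the log2 scale. On both days 42 members were higher, and Atf4 and Trib3 were on neither. Trib3, a pseudokinase, had 2 and 4 UMIs in Ig-high cells and stayed under the minimum of 20 UMIs in both groups together. The day 0 and day 14 ratios of the 46 measured members had a Pearson correlation of 0.924 on the log2 scale, as a description across genes, which are not independent.

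**Figure D2:**
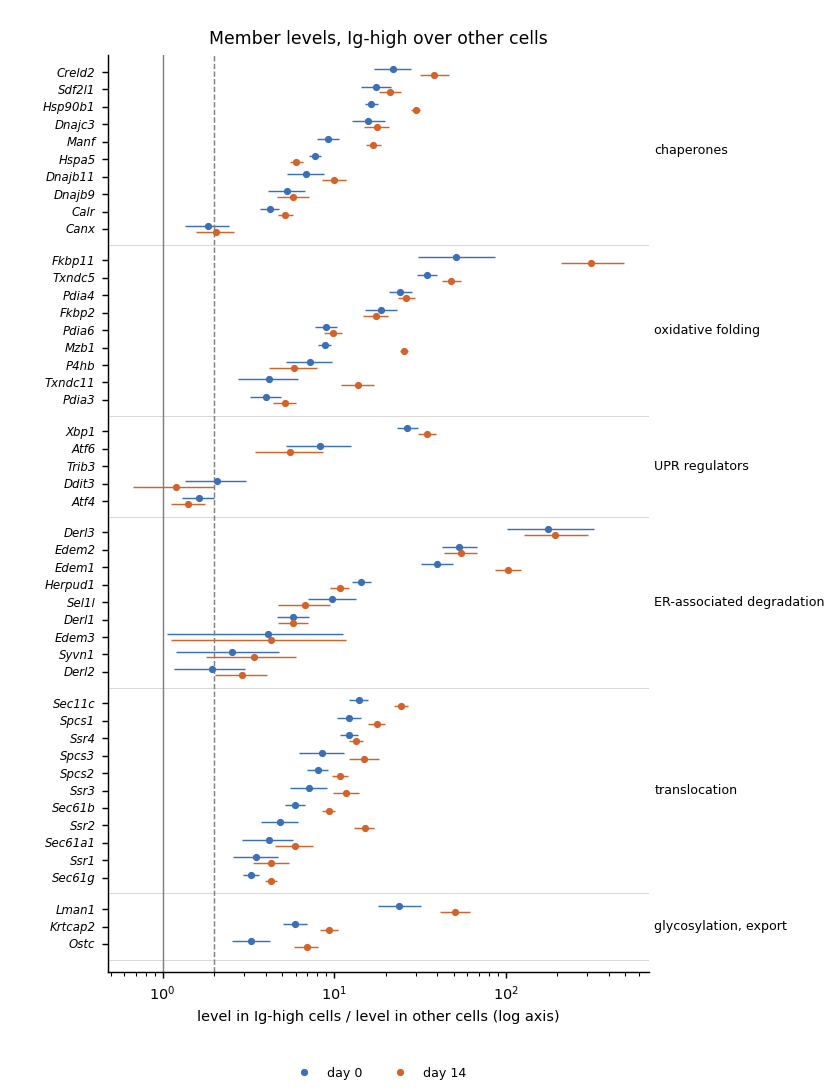
Level of each member in Ig-high cells divided by its level in other cells (log axis), by role, at day 0 (blue) and day 14 (orange). Bars are exact 95% counting intervals, the solid line marks 1 and the dashed line 2. Derl3 and Fkbp11 lie farthest to the right, Atf4 and Ddit3 nearest to 1, and Trib3 has no point.

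Of the 10 chaperones and their partners, 9 were higher at day 0 and 10 at day 14. Hspa5 (BiP), the main chaperone of the ER lumen, stood at 3723 CPM in Ig-high against 481 in other cells at day 0, which is 7.75-fold (7.12 to 8.42). At day 14 it was 2819 against 467, or 6.03-fold (5.55 to 6.55). BiP was uneven among these cells: single Ig-high cells ran from 764 to 16366 at day 0, with a median of 2272, and 1 cell held 26.6% of its UMIs. Hsp90b1 (GRP94), the ER form of HSP90, was at 3981 against 241 at day 0, 16.5-fold (15.1 to 18.0), and at 7596 against 254 at day 14, 29.9-fold (28.2 to 31.8). Creld2, an ER stress-inducible protein, was 22.0-fold higher (17.0 to 28.2) at day 0 and 38.5-fold (31.7 to 46.6) at day 14. The lectin chaperones came lower. Calr was 4.23-fold and 5.21-fold higher, and Canx, its membrane-bound relative, was at 275 against 149 at day 0, 1.84-fold (1.35 to 2.45), and at 299 against 147 at day 14, 2.04-fold (1.57 to 2.60). Canx was thus past 2-fold at day 14 alone, and weighting all cells equally or scaling by TMM factors ended that call.

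All 9 members of oxidative folding, the disulfide isomerases and peptidyl-prolyl isomerases with their partners, were higher on both days. Txndc5, a thioredoxin-domain isomerase, was at 2282 in Ig-high against 65.4 in other cells at day 0, 34.9-fold (30.5 to 39.9), and at 2207 against 45.7 at day 14, 48.3-fold (42.6 to 54.8). Pdia4 was 24.3-fold (20.8 to 28.4) and 26.4-fold (23.5 to 29.6) higher. Fkbp11, a membrane-bound isomerase of secretory cells, had 36 UMIs in 24 Ig-high cells and 30 in 3172 other cells at day 0, 51.7-fold (30.96 to 86.9). At day 14 it had 172 UMIs in 27 Ig-high cells and 27 in 4602 other cells, 316-fold (210 to 493). No other cell held more than 2 UMIs of it. Mzb1, a chaperone of antibody assembly that is also made in marginal zone and other B cells, was found in 49.3% and 48.0% of other cells, and its ratios were 8.85 (8.10 to 9.66) and 25.7 (24.3 to 27.1). Pdia3 and P4hb, also isomerases, had smaller ratios than Pdia4, with Pdia3 at 3.997 and 5.15 and P4hb at 7.23 and 5.85.

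The 5 regulators divided. Xbp1, the IRE1 target and plasma cell transcription factor, stood at 1773 against 66.2 at day 0, 26.8-fold (23.2 to 30.9), and at 2216 against 63.5 at day 14, 34.9-fold (31.1 to 39.2). It was detected in 24 of 24 and 27 of 27 Ig-high cells. These 3′ counts do not tell spliced from unspliced Xbp1. Atf6, the membrane-tethered sensor, had 27 and 23 UMIs in Ig-high cells and was 8.25-fold (5.25 to 12.5) and 5.56-fold (3.45 to 8.58) higher. Atf4, the factor translated under PERK signalling, was at 515 against 317 at day 0, or 1.62-fold (1.30 to 2.00), and at 353 against 250 at day 14, or 1.41-fold (1.11 to 1.76), the member with the lowest upper bound over both days. Ddit3 (CHOP), a factor of the late stress response, had 27 and 15 UMIs in Ig-high cells. Its ratio was 2.07 (1.35 to 3.05) at day 0 and 1.21 (0.670 to 2.00) at day 14, and at day 0 it was 0.903 with all UMIs, immunoglobulin included, as the denominator.

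Ratios in the degradation of misfolded chains (ERAD) spread widely. Derl3, a derlin of the retrotranslocation channel, had 66 UMIs in Ig-high and 16 in other cells at day 0, 178-fold (102 to 329), and 113 and 29 at day 14, 193-fold (127 to 301). Its relative Derl2 was at 114 against 59.2 at day 0, 1.93-fold (1.17 to 3.02), and 2.91-fold (2.03 to 4.06) at day 14. Derl1 lay between them, at 5.77-fold on both days. The mannosidase-like proteins that mark glycoproteins for removal also differed from each other. Edem1 was 40.0-fold (32.3 to 49.6) and 103-fold (86.3 to 123) higher, and Edem2 53.9-fold (42.6 to 68.2) and 54.7-fold (44.0 to 67.9). Edem3 had 4 UMIs in Ig-high cells on each day and ratios of 4.10 (1.07 to 11.3) and 4.31 (1.13 to 11.8), and TMM scaling ended both calls. Herpud1, a scaffold of the degradation complex, was 14.4-fold and 10.8-fold higher. The ligase Syvn1 and its partner Sel1l stood at 2.53 and 9.79 at day 0 and at 3.41 and 6.76 at day 14.

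All 11 translocation members were higher on both days, with day 0 ratios from 3.28 to 13.9 and day 14 ratios from 4.30 to 24.6. The signal peptidase subunit Sec11c led on both days, at 13.9 (12.2 to 15.8) and 24.6 (22.4 to 27.1). The channel's small subunit Sec61g had the smallest ratio on both days, 3.28 (2.93 to 3.65) and 4.30 (3.97 to 4.66), and was detected in 73.5% and 75.2% of other cells, the highest such share of any member. Ssr1, a subunit of the translocon-associated complex, was at 3.51 (2.58 to 4.69) and 4.31 (3.36 to 5.46). The 3 members of glycosylation and export were higher on both days as well. Lman1 (ERGIC-53), the cargo receptor for glycoproteins that leave the ER, stood at 440 against 18.3 at day 0, 24.0-fold (17.9 to 32.0), and at 880 against 17.4 at day 14, 50.6-fold (41.3 to 62.0). Krtcap2 and Ostc, subunits of the oligosaccharyltransferase, were 5.93-fold and 3.30-fold higher at day 0 and 9.38-fold and 6.91-fold at day 14.

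As a gauge of free RNA, the level in other cells was taken as a share of that in Ig-high cells. Jchain in other cells was 0.043% of its Ig-high level at day 0 and 0.027% at day 14, and Igha 0.049% and 0.037%. The class rule itself holds Igha down in other cells, since cells dominated by Igha were counted as class-switched. The lowest members by the same measure were Derl3 at day 0, 0.563%, and Fkbp11 at day 14, 0.317%, so all members lay above the gauge. These rested on 16 and 27 UMIs in other cells. Jchain and Igha cannot gauge free RNA that came from the other cells themselves, and its part in these levels was not tested. In other cells the 6 members with most UMIs, led by Sec61g and Hspa5, gave 44.1% of all member UMIs at day 0. In Ig-high cells the 6 leading members gave 38.7%, led by Hsp90b1, Hspa5 and Mzb1.

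The rest of the pathway was read from 7 further lists of 100 genes in all. Of those measured, 61 of 92 were higher in Ig-high cells at day 0 and 66 of 91 at day 14, with median ratios of 3.47 and 3.85. By the same rule 11.4% and 12.4% of all measured genes were higher. The glycan-attaching oligosaccharyltransferase had 7 of 10 subunits higher on both days, with Ddost at 9.56 and 14.5 and Rpn1 at 7.64 and 11.1, while Dad1, its most abundant subunit by UMIs, was at 1.63 and 1.41. Signal recognition and targeting had 11 of 15 higher on both days. Tram2, a translocon partner, was at 27.1 and 57.6, Sil1, the nucleotide exchange factor of BiP, at 11.5 and 7.44, and Sec62 at 1.39 and 1.43. Glycan quality control had 10 and 11 of 15 higher, with Erlec1 at 6.79 and 8.93, Ube2j1 at 6.04 and 6.37 and Selenok at 2.62 and 3.19. Oxidation had 5 and 7 of 8 higher: the peroxiredoxin Prdx4 was at 31.2 and 29.6 and the cyclophilin Ppib at 4.12 and 7.81. Vesicle coat and transport genes had 16 and 20 of 23 higher, with Sec24d at 46.7 and 26.8, Ergic1 at 26.2 and 21.5 and Tmed2 at 3.63 and 4.85. Sec24d rested on 13 UMIs in Ig-high and 12 in other cells at day 0 (19.6 to 112), and on 13 and 24 at day 14 (12.6 to 54.9).

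Of 9 measured genes of the UPR sensors and their feedback, 3 were higher on both days, where 11.4% and 12.4% of all measured genes were: the transcription factors Creb3l2 (110 and 60.2), Atf6b (4.28 and 5.44) and Creb3 (2.43 and 3.35). Creb3l2 rested on 23 UMIs in Ig-high and 9 in other cells at day 0 (49.1 to 270). At day 14 it had 17 and 14 (27.9 to 132). Its UMIs in other cells alone were under the minimum of 20 on both days. Eif2ak3, which encodes PERK, had ratios of 0.746 (0.406 to 1.26) and 0.686 (0.374 to 1.16). Ern1, which encodes IRE1, had 2 and 6 UMIs in Ig-high cells and was not measured. At day 14, Ppp1r15a, the phosphatase subunit that reverses PERK signalling, at 0.436 (0.276 to 0.656), and Nfe2l2, at 0.367 (0.119 to 0.861), were lower. Among ATF4 target genes 9 of 12 were higher at day 0 and 7 of 11 at day 14, with the amino acid transporter chain Slc3a2 at 9.67 and 2.39, the serine synthesis enzyme Phgdh at 4.62 and 5.19 and the folate enzyme Mthfd2 at 4.23 and 4.19.

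Class-switched cells were compared with the same other cells as the Ig-high cells above, so the comparisons share those cells. Among the 46 members measured, 29 passed 1.5-fold upward at day 0 and 38 at day 14, with 0 lower, where 10.5% and 9.62% of all measured genes were higher and 3.87% and 2.85% lower. This rested on very few cells. Only 2 class-switched cells at day 0 and 4 at day 14 had between 5% and 20% immunoglobulin UMIs, and they held 38.7% and 68.0% of the class's member UMIs. In 5 of these 6 cells the members made up 4.64% to 6.79% of UMIs, within the range of Ig-high cells, and the other held 1.98%. Without these cells, 5 of 45 measured members were higher at day 0 and 3 of 46 at day 14, and 1 was lower at day 14. No share of all genes was taken for this setting, so these few calls are not set apart from genes at large. The summed ratio went from 1.79 to 1.17 (1.12 to 1.22) at day 0 and from 2.86 to 1.14 (1.08 to 1.2) at day 14.

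Mzb1, Edem1 and Herpud1 were higher on both days among class-switched cells under 5% immunoglobulin. Mzb1 was at 896 against 394 at day 0, or 2.27-fold (2.02 to 2.55), and at 914 against 362 at day 14, 2.53 (2.18 to 2.91). Herpud1 stood at 1.89 (1.51 to 2.36) and 1.52 (1.08 to 2.07). Edem1 rested on 16 and 15 UMIs, with ratios of 1.83 (1.02 to 3.05) and 3.89 (2.13 to 6.57). P4hb at 1.96 (1.28 to 2.90) and Spcs3 at 1.91 (1.22 to 2.89) were higher at day 0 alone, and Derl2, with 5 UMIs, was lower at day 14 at 0.393 (0.127 to 0.921). Several members with large ratios in the whole class did not keep them. Hsp90b1 went from 3.72 to 1.002 at day 0 and from 4.97 to 1.02 at day 14, and Lman1 from 4.41 and 9.90 to 1.52 and 1.54. Derl3 went from 12.3 and 26.1 to 3.92 and 3.41 on 3 and 2 UMIs, and Fkbp11 had 0 UMIs in them on both days. Atf4, Ddit3 and Canx were not called in the whole class on either day. By day, 20 of 44 measured members were higher in the whole class at day 14 and 0 lower, where 3.28% of measured genes were higher and 4.08% lower. Under 5% immunoglobulin the members summed to 0.643% (0.617 to 0.670) at day 0 and 0.621% (0.589 to 0.654) at day 14. Germinal center and cycle markers moved with this class, with a summed level 11.5-fold (day 0) and 9.58-fold (day 14) that of other cells, and their part in these values was not tested. A class-switched cell at day 0 with 2.65% immunoglobulin UMIs and a member share of 4.94% had 23.2% mitochondrial UMIs.

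**Figure D3:**
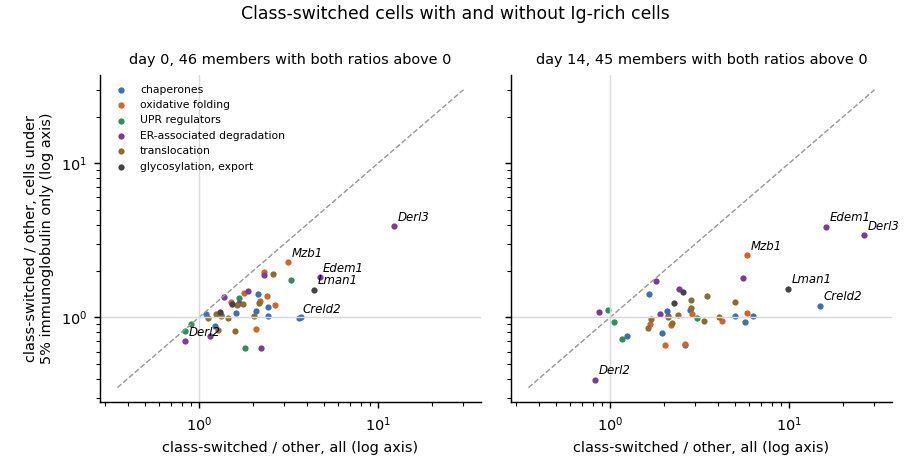
Ratio of each member between class-switched and other cells with all class-switched cells (horizontal) and with only those under 5% immunoglobulin UMIs (vertical), both on log axes, at day 0 and day 14. Points are members, coloured by role, and the dashed line marks equal ratios. Most points lie below it and near a vertical value of 1, and Mzb1, Edem1 and Derl3 stay higher up.

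Between the days, no member was called in other cells. All 47 members were measured there, and 0 were at least 1.5-fold higher and 0 lower at day 14, where 1.18% of the 9929 measured genes were higher and 4.25% lower. Their summed share of 0.549% and then 0.546% gave a day ratio of 0.994 (0.982 to 1.007). The median log2 ratio was -0.06 for the members and -0.09 for all genes. The members with the highest lower bound were Sec61b at 1.22 (1.15 to 1.29), Pdia4 at 1.25 (1.12 to 1.41), Dnajb11 at 1.21 (1.08 to 1.35) and Sec61g at 1.10 (1.06 to 1.14). Those with the lowest upper bound were Txndc5 at 0.698 (0.616 to 0.792), Atf4 at 0.789 (0.746 to 0.833), Ddit3 at 0.747 (0.665 to 0.839) and Edem1 at 0.709 (0.576 to 0.873). Atf4 went from 317 to 250 CPM and Ddit3 from 74.5 to 55.6. In other cells Xbp1 was at 0.958 (0.853 to 1.08), Hspa5 at 0.972 (0.932 to 1.015) and Atf6 at 0.987 (0.793 to 1.23).

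The same comparison in Ig-high cells measured 45 members, of which 16 were at least 1.5-fold higher at day 14 and 2 were lower, where 11.8% of the 2263 measured genes were higher and 9.01% lower. The summed level went from 4.54% to 6.61%, 1.46-fold (1.42 to 1.496). Abundant members weigh most in this sum. Mzb1 gave 7.68% of member UMIs at day 0 and 14.1% at day 14, and Hsp90b1 8.77% and 11.5%. The sum was not taken without these members. The higher members were 4 chaperones, 3 of oxidative folding, 1 of ERAD, 6 of translocation and 2 of glycosylation and export, and 0 regulators. The lower members were Ddit3 and Sel1l, both of which stood above 1 when Ig-high cells were taken from 50% immunoglobulin up, at 1.13 and 1.26. With all UMIs as the denominator neither was called. TMM scaling also ended the call of Sel1l, and a minimum of 50 UMIs that of Ddit3. The smaller Jchain share at day 14 leaves more of the denominator to all other genes. With Jchain left out, the summed level went from 5.51% to 7.28%, with 12 members higher and 5 lower: Creld2, Ssr3, Sec11c and Spcs1 lost the call, and P4hb, Atf4 and Herpud1 became lower. The share of all genes called was not computed without Jchain.

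**Figure D4:**
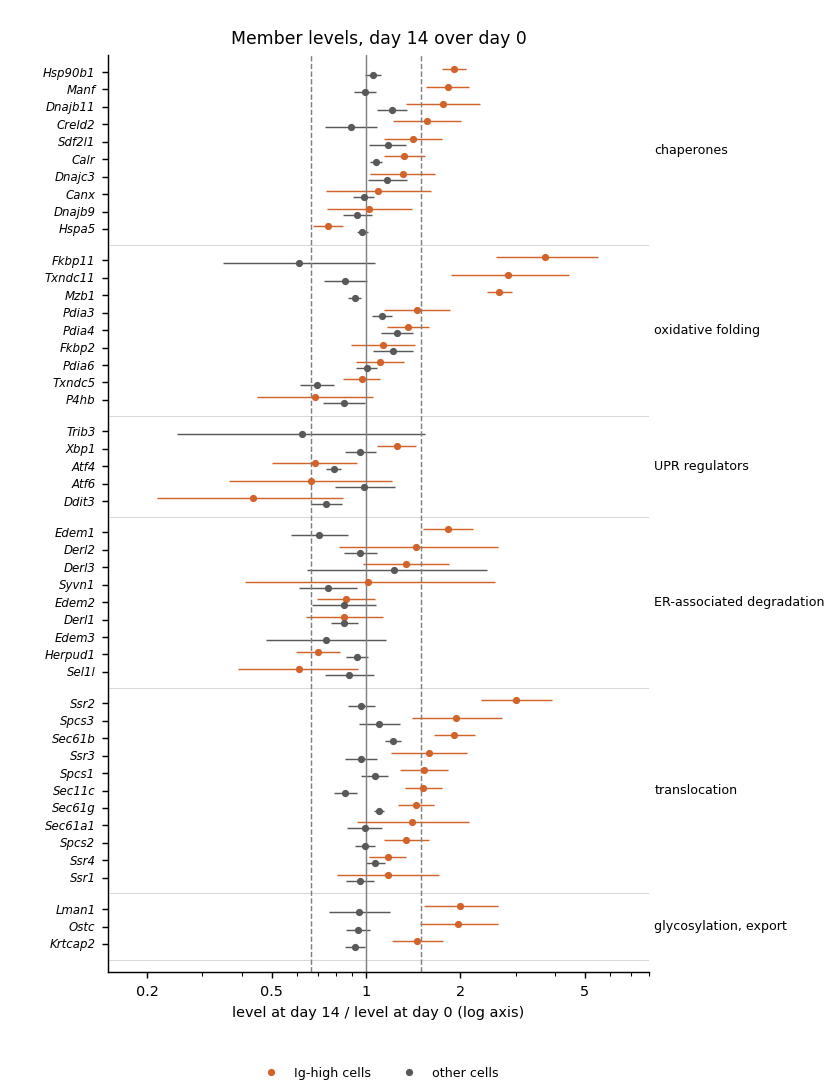
Level at day 14 divided by level at day 0 for each member (log axis), by role, in Ig-high cells (orange) and other cells (grey). Bars are exact 95% counting intervals, the solid line marks 1 and the dashed lines 1.5-fold either way. Other cells stay near 1, and in Ig-high cells Fkbp11, Ssr2, Txndc11 and Mzb1 lie farthest to the right and Ddit3 farthest to the left.

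Fkbp11 had the largest day ratio in Ig-high cells at the 20% threshold, with 36 UMIs in 13 of 24 cells at day 0 and 172 at day 14. Its level went from 206 to 769 CPM, 3.73-fold (2.59 to 5.51). Ssr2, a subunit of the translocon-associated complex, ran from 0 to 764 at day 0, with a median of 389, and from 123 to 2440 at day 14, with a median of 1208, a 3.0-fold difference (2.32 to 3.92). Mzb1 ran from 459 to 8987 with a median of 3087 at day 0, and from 635 to 20419 with a median of 8763 at day 14, 2.66-fold (2.43 to 2.92). The ranges of both genes overlapped between the days, with most day 14 cells of Ssr2 above its highest day 0 cell. Txndc11, a thioredoxin-domain partner of the degradation machinery, was 2.83-fold (1.86 to 4.43) higher. Then came Lman1 at 2.00 (1.53 to 2.64), Ostc at 1.97 (1.48 to 2.64), Spcs3 at 1.94 (1.40 to 2.71), Hsp90b1 at 1.91 (1.75 to 2.09) and Sec61b at 1.91 (1.64 to 2.23). Manf, a secreted ER stress factor, and Edem1 were both at 1.82.

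Neither BiP nor any regulator was among the higher members. Hspa5 was at 0.757 (0.678 to 0.846), with a median cell of 2272 at day 0 and 2032 at day 14. Xbp1 was at 1.25 (1.08 to 1.45), with medians of 1449 and 1687. Ddit3 was detected in 14 of 24 cells at day 0 and 7 of 27 at day 14, a ratio of 0.434 (0.215 to 0.845) on 27 and 15 UMIs. Atf4 was at 0.686 (0.5004 to 0.938) and Atf6 at 0.665 (0.365 to 1.21), neither of them called. In ERAD, Sel1l was lower at 0.609 (0.390 to 0.945) on 50 and 39 UMIs, Herpud1 stood at 0.702 (0.597 to 0.825), and Edem2 and Derl1 at 0.862 and 0.852, while Edem1 was higher.

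**Figure D5:**
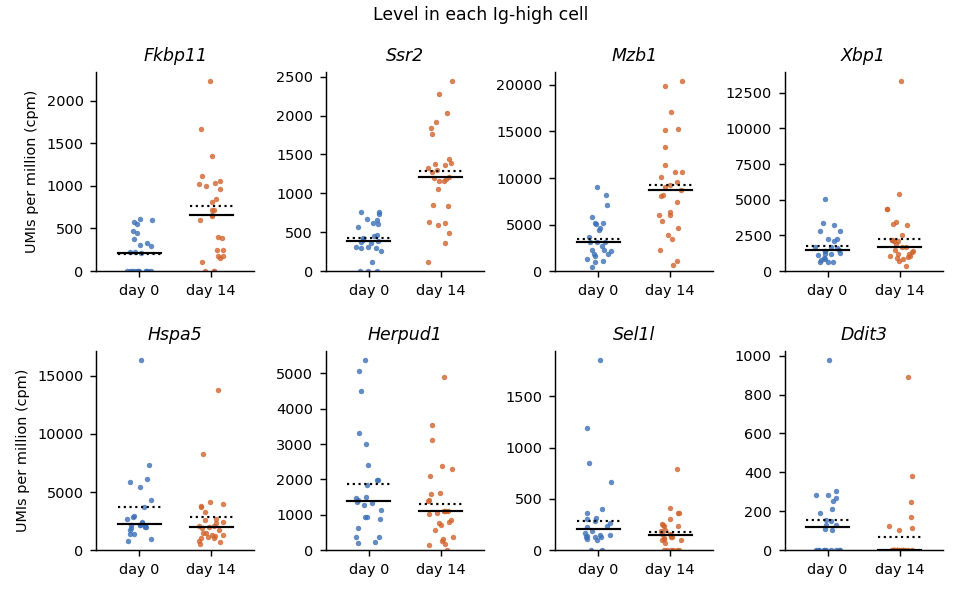
Level of 8 members in each Ig-high cell, in CPM, at day 0 (24 cells, blue) and day 14 (27 cells, orange). Solid bars are medians over cells and dotted bars the level from summed UMIs. The upper row holds Fkbp11, Ssr2, Mzb1 and Xbp1, and the lower row Hspa5, Herpud1, Sel1l and Ddit3, which were lower from summed UMIs at day 14.

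Among the other pathway genes, 15 of 74 measured were higher and 5 lower at day 14 in Ig-high cells, beside the 11.8% and 9.01% of all measured genes. Signal recognition genes had 5 of 14 higher, with Srp19 at 2.82 and Srprb at 2.21, and oxidation had 3 of 7, with Erp29 at 2.36 and Ppib at 1.93. Vesicle genes had 4 of 19, among them the retrieval receptors Kdelr1 at 1.86 and Kdelr2 at 1.95. The oligosaccharyltransferase had Ddost at 1.73 and Rpn1 at 1.65 higher and Stt3b at 0.302 (0.176 to 0.501) lower. ATF4 target genes had 0 of 8 higher and 3 lower: Slc3a2 at 0.221 (0.169 to 0.286), its fellow transporter gene Slc7a5 at 0.320 (0.1295 to 0.722), and Asns, asparagine synthetase, at 0.331 (0.164 to 0.636). Slc3a2 had a median of 921 at day 0, from 132 to 6994, and of 307 at day 14, from 0 to 2188. Leaving out its top cell on each day gave 0.238 (0.178 to 0.316). The summed ATF4 list was at 0.482 (0.416 to 0.559), and at 0.534 (0.455 to 0.625) without its top cells. Slc3a2 alone gave 272 of the list's 481 UMIs at day 0 and 77 of 297 at day 14. The list was not summed without Slc3a2, so this sum does not describe the whole list. Phgdh stood at 1.09 (0.756 to 1.58) and Mthfd2 at 0.830 (0.394 to 1.76), neither of them called. Ppp1r15a was also lower, at 0.486. These genes were singled out after their values were seen where they fall outside the naming rule.

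Immunoglobulin load and isotype differed between the days' Ig-high cells, with a median immunoglobulin share of 57.2% at day 0 and 40.6% at day 14. Within bands of that share, members summed to 5.57% (5 cells) at day 0 and 6.68% (9 cells) at day 14 from 35% to 50%. Above 50% they summed to 4.22% (18 cells) and 5.56% (8 cells). From 20% to 35% there was 1 cell at day 0, at 4.56%, and 10 cells at day 14, at 7.11%. From 35% up, day 14 was thus above day 0 in both bands, and on both days the level was lower above 50% than from 35% to 50%. With the threshold for Ig-high cells set at 50%, 9 members were higher and 1 lower at day 14, with 6 of the 16 higher members kept. This compared 18 cells at day 0 with 8 at day 14, and the share of all genes called was not computed at that threshold. Fkbp11 then stood at 1.64 and lost its call, while Derl3 at 2.22, Mzb1 at 2.15, Txndc11 at 2.05 and Ssr2 at 1.96 were higher. Neither lower member kept its call, Hspa5 was the 1 lower member, and Xbp1 was called higher. Below the 20% threshold, class-switched cells with 10% to 20% immunoglobulin summed to 6.16% (5.85 to 6.49, 2 cells) at day 0 and 5.69% (5.49 to 5.90, 3 cells) at day 14, where day 14 was the lower.

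IgA was the heavy chain of 22 of 24 Ig-high cells at day 0 and of 20 of 27 at day 14. For 1 of these day 14 cells this rested on 8 Igha UMIs, a share of 0.667 of its heavy chain constant UMIs. In IgA cells the members summed to 4.48% (4.38 to 4.58) and 6.09% (5.97 to 6.20). The 7 day 14 cells of other isotypes, 5 IgG and 2 IgM, summed to 8.34% (8.09 to 8.59), and the 2 such cells at day 0 to 5.40% (4.99 to 5.84). Among IgA cells alone 14 members were higher and 4 lower at day 14: Creld2 (1.08) and Ssr3 (1.47) were no longer called higher, Ddit3 (0.493) no longer lower, and Hspa5 (0.589), Atf4 (0.605) and Herpud1 (0.613) were lower. The share of all genes called was not computed for IgA cells alone. Other marker levels in Ig-high cells also differed between the days. The 8 germinal center and cycle markers went from 5 to 39 UMIs, 6.09-fold (2.40 to 19.8). The plasma cell markers, mostly Jchain, summed to 0.530 (0.521 to 0.539) of their day 0 level, with Sdc1 (0.528) and Irf4 (0.273) also lower, and the mature B cell markers to 0.624. Jchain, these markers, immunoglobulin share and isotype moved with the day, and their part in the day ratios beyond these values was not tested. With 1 library per day, treatment, animal and library cannot be told apart.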

How the data were processed

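The deposited UMI counts come from Cell Ranger (3.0.1 per the file headers). The submitters' processing notes name build mm10, and the cell-calling settings are not stated in the sources at hand. The deposited natural log tables, for which those notes name Seurat 3.0, equal ln(1 + UMIs × 10000 / total UMIs of the cell) for all 53946130 and 76934724 values compared (relative tolerance 0.001). They served only to define the cells, without 86 of the 3376 day 0 barcodes and 88 of the 4780 day 14 barcodes.

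UMIs were summed per class and day and divided by all UMIs outside 392 immunoglobulin and 13 mitochondrial genes. Ratios have exact conditional 95% intervals, sums exact Poisson intervals, and shares exact binomial ones. These cover counting error only, and UMIs of cells of 1 library are not replicates. A gene was measured with at least 20 UMIs in both groups together. It was called with an interval clear of 1 and at least 2-fold (Ig-high cells) or 1.5-fold (class-switched cells, days) either way. Calls were tried on simulated Poisson counts with known changes planted, the same model that the intervals assume. Spread between cells was not simulated, so the trial cannot show how calls fare under it. No doublets were removed, and an alternative left out cells above 2 times the median UMIs of their class.

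Members, lists and rules were chosen with earlier results of these data known. Named members are the 10 with the highest and 6 with the lowest bounds in Ig-high cells, the 4 highest and 4 lowest in each of the other-cell day and class-switched comparisons, Xbp1, Atf4, Atf6, Ddit3, Trib3 and Hspa5, and of each other list the 2 with the highest bound and the most abundant gene. Others named were chosen after their values were seen. Scaling factors came from edgeR 4.0.16 (TMM) and DESeq2 1.42.0 (median of ratios), on R 4.3.3, as alternatives only. Intervals used scipy 1.17.1 on Python 3.11.15. Promoter sequences are RefSeq's (GRCm38.p6).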

Additional observations from a re-analysis of the deposited data

Results flagged for a closer look

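For 4 members the day ratio lay on opposite sides of 1 in Ig-high and other cells, both with intervals clear of 1. The difference between the classes was not tested. Mzb1 was at 2.66 in Ig-high and 0.918 (0.875 to 0.963) in other cells. Edem1 was at 1.82 in Ig-high and 0.709 (0.576 to 0.873) in other cells. Sec11c was at 1.52 in Ig-high and 0.859 (0.791 to 0.933) in other cells. Krtcap2, under the 1.5-fold limit, was at 1.46 in Ig-high and 0.921 (0.857 to 0.9903) in other cells.

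Among the 86 day 0 barcodes outside the deposited natural log table, 4 had at least 20% immunoglobulin UMIs, all of them with IgA as their heavy chain. The members made up 2.04% (1.41 to 2.85) of their other UMIs, 34 of 1668, against 0.549% in other cells. They held 847 to 1615 UMIs each, 15.5% to 23.5% of them mitochondrial. At day 14 there were 0 such barcodes.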

How the results depend on the processing

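No paired analysis was possible because each day has 1 library and the labels give no replicate numbers. Of the summary values under other settings, 69 stayed within 1.5 times the main count or within the counting interval and 19 did not; of ratios of members named by rule, and of those called or always named in the Ig-high day comparison, 666 moved little, 166 moved and 5 called ones changed side. The members higher in Ig-high cells numbered 33 to 45 at day 0 and 40 to 45 at day 14 over all settings, the fewest with all UMIs as the denominator.

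For class-switched cells, the count of higher members (29 and 38) went to 5 and 3 with a 10% immunoglobulin threshold, 2 and 5 without cells above 2 times the median UMIs, and 17 and 23 with each cell weighted equally. With cells under 5% immunoglobulin it was 5 and 3, and under 2%, 4 and 3. Of the called members, 6 at day 0 and 14 at day 14 fell below 1 under 5%, and 10 and 17 under 2%, Hsp90b1 (0.985 and 0.998) among them. With the 10% threshold 6 and 13 did, and without cells above 2 times the median UMIs, 7 and 12. In Ig-high cells against other cells at day 0, Ddit3 changed side with all UMIs as the denominator, at 0.903. In other cells the day comparison gave 1 member with equal weights (Fkbp11) and 2 by fold alone (Fkbp11 and Trib3) in place of 0. In Ig-high cells it gave 10 members with a 50% threshold in place of 18 (Ddit3 at 1.13 and Sel1l at 1.26 changed side). With all UMIs as the denominator it gave 28, all of them higher. With Jchain counted among immunoglobulin genes, the day 0 bands stood at 6.08% (from 35%, 1 cell) and 5.53% (from 50%, 22 cells). The day 14 bands then stood at 7.69% (from 20%, 7 cells), 7.42% (from 35%, 10 cells) and 6.59% (from 50%, 10 cells). The settings on class-switched cells under 5% and 2%, on IgA cells, on the top cell and on Jchain in ratios were chosen after seeing the data. Shares of all genes called were computed for the main settings only.

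Depth limits what 24 and 27 Ig-high cells can show: members such as Trib3, Edem3 and Syvn1 had 2 to 13 UMIs there, and their intervals span several fold.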
